A study of Rattus norvegicus with 19 samples.

Results

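Dnase2b, Ncor1, Usp40, Smg1, Slf2 and Zfp281 are 6 genes that differed in rat liver between a high protein diet and a control diet and that have no role in amino acid metabolism. They were chosen for that difference, so the HP and Control values below describe them and test nothing. Their 9 probes, of 41012 non-control probes on the array, were found by gene name or by a current symbol or synonym. Of these, 8 passed the filter on dim probes that left 25290 probes in all. Smg1 has 2 probes and Ncor1 has 3, and the other genes have 1 probe each. For Ncor1 and Smg1 the brightest probe stands for the gene unless another is named.

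Liver RNA of 19 male Wistar rats, an outbred strain, was measured on Agilent 2-colour arrays, with 1 array per rat. The high protein diet (HP, 6 rats) drew 45% of energy from protein, chiefly casein, 45% from carbohydrate and 10% from fat. The high fat diet (HF, 6 rats) drew 20% from protein, 20% from carbohydrate and 60% from fat. For the control diet (Control, 7 rats) the shares were 20% protein, 70% carbohydrate and 10% fat. All rats ate their diet for 4 months from 8 weeks of age and were killed fed. Each liver's RNA carried Cy5 and was set against a Cy3 pool of liver RNA, without dye swaps, so every level here is a log2 ratio to that pool. Levels of different probes cannot be ranked against each other.

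These genes belong to unrelated machineries. Dnase2b encodes DNase II beta, an endonuclease of the acid DNase family that clears DNA from lens fibre cells in the mouse. Ncor1 encodes a corepressor that joins unliganded nuclear receptors to histone deacetylases, and in liver it restrains genes of lipid and energy metabolism. Smg1 encodes a large kinase of the same family as Atm and mTOR that phosphorylates Upf1 in nonsense-mediated mRNA decay, which removes transcripts with premature stop codons. Slf2 encodes a factor that, in human cells, brings the SMC5/6 complex to damaged DNA. Zfp281 encodes a zinc finger transcription factor that binds GC-rich DNA and, in mouse stem cells, works with the NuRD remodelling complex. Usp40 encodes a member of the ubiquitin-specific protease family, enzymes that take ubiquitin off proteins.

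The promoters of the 6 genes are shown because 5 of them were lower and 1 was higher in HP livers. Each line gives the 250 bases before the start site in RefSeq's table for the GRCr8 assembly, read on the gene's strand, with matches to the motifs searched in capitals.
Dnase2b, chr2:238146559-238146808, minus strand: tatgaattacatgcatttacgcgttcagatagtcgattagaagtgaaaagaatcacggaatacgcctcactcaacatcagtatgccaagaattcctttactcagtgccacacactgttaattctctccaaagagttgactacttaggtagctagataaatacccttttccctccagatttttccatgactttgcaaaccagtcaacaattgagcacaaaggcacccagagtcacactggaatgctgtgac
Ncor1, chr10:47640351-47640600, minus strand: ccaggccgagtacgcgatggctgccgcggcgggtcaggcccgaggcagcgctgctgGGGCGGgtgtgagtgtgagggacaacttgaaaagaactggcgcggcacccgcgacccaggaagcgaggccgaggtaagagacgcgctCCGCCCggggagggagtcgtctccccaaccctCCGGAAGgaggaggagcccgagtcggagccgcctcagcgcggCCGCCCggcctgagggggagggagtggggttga
Usp40, chr9:96126722-96126971, minus strand: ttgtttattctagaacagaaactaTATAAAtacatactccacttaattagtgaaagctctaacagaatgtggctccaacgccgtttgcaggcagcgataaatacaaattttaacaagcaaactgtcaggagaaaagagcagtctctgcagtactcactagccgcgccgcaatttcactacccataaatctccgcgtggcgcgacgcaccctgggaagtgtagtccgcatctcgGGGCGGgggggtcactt
Smg1, chr1:181977895-181978144, minus strand: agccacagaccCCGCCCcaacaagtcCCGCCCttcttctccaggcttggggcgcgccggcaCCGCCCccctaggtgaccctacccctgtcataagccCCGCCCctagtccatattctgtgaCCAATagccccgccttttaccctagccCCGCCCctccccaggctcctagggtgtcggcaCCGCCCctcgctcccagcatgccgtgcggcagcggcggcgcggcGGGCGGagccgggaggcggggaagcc
Slf2, chr1:253731780-253732029, plus strand: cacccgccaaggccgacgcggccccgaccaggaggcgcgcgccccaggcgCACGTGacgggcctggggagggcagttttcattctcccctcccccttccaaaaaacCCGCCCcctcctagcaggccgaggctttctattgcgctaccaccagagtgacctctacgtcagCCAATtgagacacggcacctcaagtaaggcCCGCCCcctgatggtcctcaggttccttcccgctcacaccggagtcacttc
Zfp281, chr13:50647572-50647821, plus strand: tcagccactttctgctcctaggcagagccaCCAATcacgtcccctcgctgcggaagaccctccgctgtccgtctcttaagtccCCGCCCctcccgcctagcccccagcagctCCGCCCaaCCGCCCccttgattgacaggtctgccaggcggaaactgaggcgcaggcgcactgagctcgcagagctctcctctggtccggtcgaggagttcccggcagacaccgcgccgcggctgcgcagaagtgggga

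The motifs searched, on both strands, were the GC box (GGGCGG), the CCAAT box (CCAAT), the TATA box (TATAAA), the E-box (CACGTG), the ETS site (CCGGAAG), the CRE (TGACGTCA), the YY1 site (AAGATGGC) and the palindromic NRF1 site. Any of them may overlap another. The GC box, the binding motif of Sp1-type factors, lay in 5 of the 6 promoters, against 30.5% of 33469 rat promoters of the same length. Those 33469 were not limited to genes detected in these livers, as the 6 genes were. No share among detected genes was taken for any motif or count here. The promoters holding it were those of Ncor1, with 3 matches, Usp40 with 1, Smg1 with 7, Slf2 with 2 and Zfp281 with 3, and the Dnase2b window held none. A CCAAT box lay in those of Smg1, Slf2 and Zfp281, 3 of 6 against 34.0% of all promoters. Usp40 held the only TATA box (12.9% of all), Slf2 the only E-box (5.59%) and Ncor1 the only ETS site (7.27%). The CRE, the YY1 site and the NRF1 site matched in 0 of 6 windows, and 1.59%, 1.63% and 0.762% of all promoters hold them. GC content was 72.0% in the Ncor1 window, 71.6% in Smg1, 67.2% in Zfp281, 65.2% in Slf2, 47.2% in Usp40 and 41.2% in Dnase2b, and the median of all promoters was 51.2%. The counts of CpG dinucleotides ran in the same order, with 28 in Ncor1, 22 in Smg1, 21 in Zfp281, 19 in Slf2, 14 in Usp40 and 5 in Dnase2b, where the median promoter has 5. The start site given for Dnase2b lies 21483 bases inside the gene's annotated span, so its window may not be the promoter used in liver. That of Ncor1 lies 1262 bases inside its span, so the same limit holds for its window. These matches describe letters in a window and show no binding, and whether they go with the direction of change was not tested.

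The tissue label held up against its markers, since all 12 hepatocyte markers checked were above background on 19 of 19 arrays. Cy5 was well above background for 53.6% to 67.1% of probes per array and Cy3 for 46.4% to 54.4%. The array of Control 6 stood apart. Its median log2 ratio over 6 lymphocyte marker genes was 2.80, against -1.31 to -0.95 on the other 18 arrays, and the spread of its log ratios (SD 0.37) exceeded that of the others (0.18 to 0.24). Results that rest on Control 6 are therefore also given without it. The part that lymphocytes had in any difference below was not tested. The 5 slides held unequal shares of the diets. HP rats were on slides 1, 4 and 5, HF rats on slides 1, 2 and 3 and Control rats on all 5. In whole-liver RNA, fewer cells of a type and less RNA per cell cannot be told apart.

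Dnase2b was the member that was higher on the high protein diet. Its probe lies at chr2:244779843-244779902 on the minus strand of the rn4 assembly. The log2 ratio had a lowest value of 0.14, a median of 0.53 and a highest of 1.35 in HP livers, -0.73, -0.42 and 0.04 in HF livers and -1.0, -0.37 and -0.29 in Control livers. Every HP liver lay above every HF and every Control liver, and the HF and Control ranges overlapped. On the linear scale the median HP liver had 1.45 times the pool's signal, the median HF liver 0.747 and the median Control liver 0.773. The HP mean was 1.18 ± 0.17 (SE of the model, log2) above the Control mean, a 2.26-fold difference and the 13th largest rise of 25290 probes. Within slides the difference was 1.53 on slide 1, 1.36 on slide 4 and 0.95 on slide 5, and it was 1.22 without Control 6. Among the HP livers the values were uneven, with 1.35 in HP 2 and 0.91 in HP 6 and 0.14 in HP 5.

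**Figure D1:**
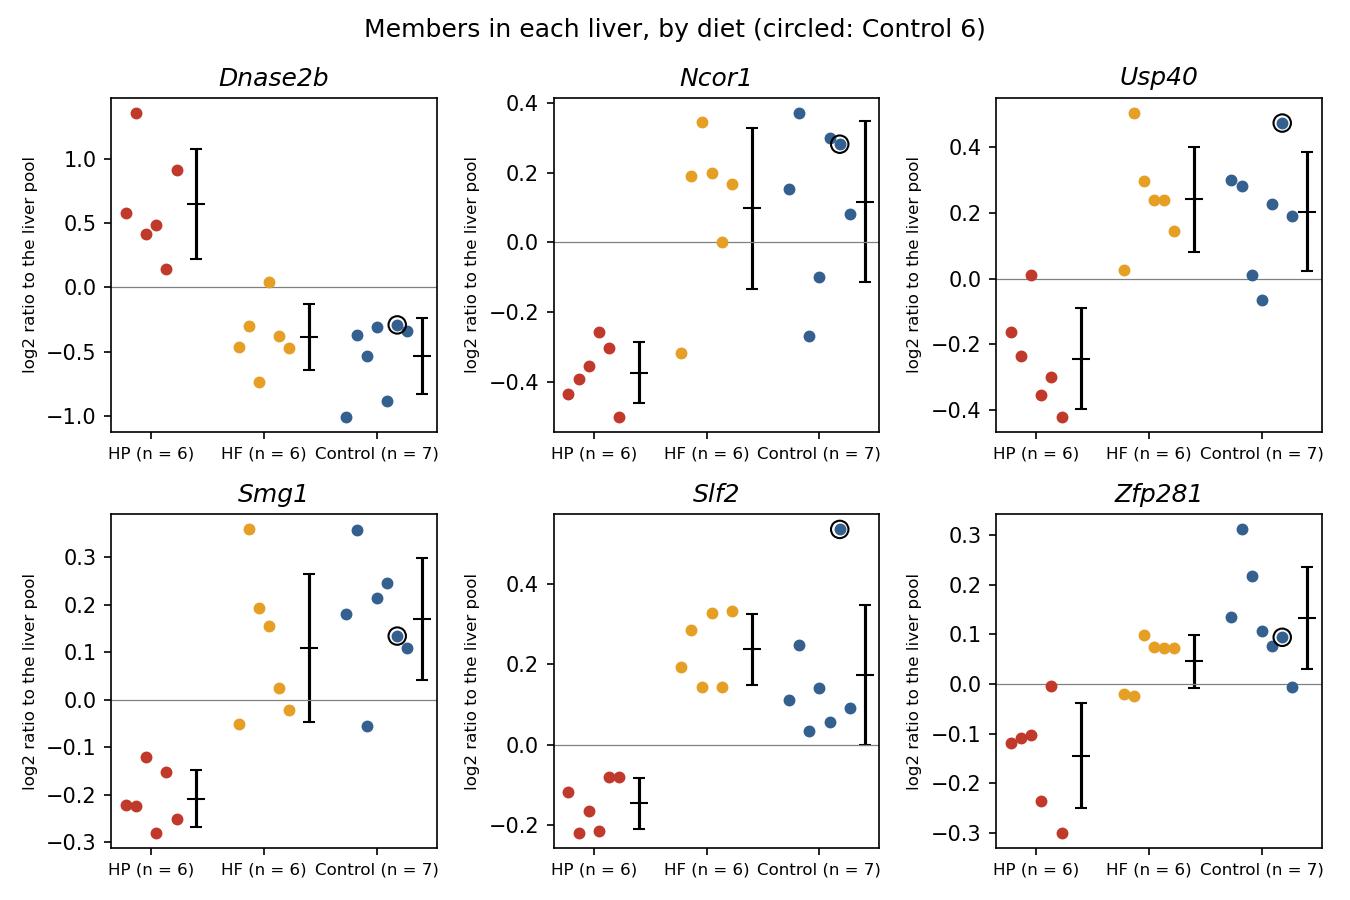
Log2 ratio to the liver pool (y axis, a scale of its own in each panel) in each liver, by diet (x axis), 1 probe per gene, with black bars for the group mean and SD. HP livers sit above all others for Dnase2b, lie below all others for Smg1 and Slf2, and overlap 1 or more Control livers for Ncor1, Usp40 and Zfp281, with Control 6 circled.

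Ncor1 was lower in HP livers. Its brightest probe (A_44_P551919) lies at chr10:48563723-48563782 on the minus strand of rn4. The lowest, median and highest log2 ratios were -0.50, -0.37 and -0.26 in HP livers, -0.32, 0.18 and 0.35 in HF livers and -0.27, 0.15 and 0.37 in Control livers. The HP livers lay close together, and 5 of 6 were below every Control liver. HF 1 at -0.32 and Control 3 at -0.27 reached into the HP range, while the next lowest liver of either diet was Control 4 at -0.10. Between the HP and Control means the difference was -0.49 ± 0.10 log2, 1.41-fold lower in HP. The difference was -0.50, -0.54 and -0.71 within slides 1, 4 and 5 and -0.46 without Control 6.

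Ncor1 has further, dimmer probes along its strand, whose differences with the mean signals were smaller in size. Whether they differ from the brightest probe in this was not tested. A_44_P974313 spans chr10:48576639-48585021, upstream of the brightest probe on the minus strand. A_44_P713311, listed under another transcript, lies downstream of the brightest probe at chr10:48480897-48480956. The HP mean was -0.21 ± 0.07 log2 from the Control mean on A_44_P974313 (-0.36 with processed signals). On A_44_P713311 the difference was -0.26 ± 0.08, and -0.19 ± 0.04 without Control 6, which lay at 0.60 there. The HP and Control ranges on that probe did not overlap, and on A_44_P974313 4 of 6 HP livers were below every Control liver. Another 2 probes name Ncor1 only in their description and lie outside the selection, A_44_P1016217 at chr10:48483191-48483250 and A_44_P1016222 at chr10:48483311-48484921. There the HP mean was -0.42 ± 0.14 and -0.30 ± 0.11 log2 from the Control mean. All 5 probes were thus lower in HP livers, by 0.21 to 0.49 on the log2 scale.

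The 2 probes outside the selection split the Control livers. On A_44_P1016222 the 6 HP livers lay between -0.02 and 0.06, and 5 of the 6 HF livers between -0.06 and 0.18, with HF 4 at 0.51. Control 1, 3 and 5, at 0.05, 0.00 and 0.00, lay beside the HP livers, while Control 2, 4, 6 and 7 were at 0.58, 0.60, 0.39 and 0.62. A_44_P1016217 put the same livers high, with HF 4 at 0.56, Control 2, 4 and 7 between 0.57 and 0.67 and Control 6 lower at 0.25. The brightest probe did not order the livers in this way, since Control 4 had -0.10 there and Control 5 had 0.30. These groups of livers were seen in the data and were not tested.

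**Figure D2:**
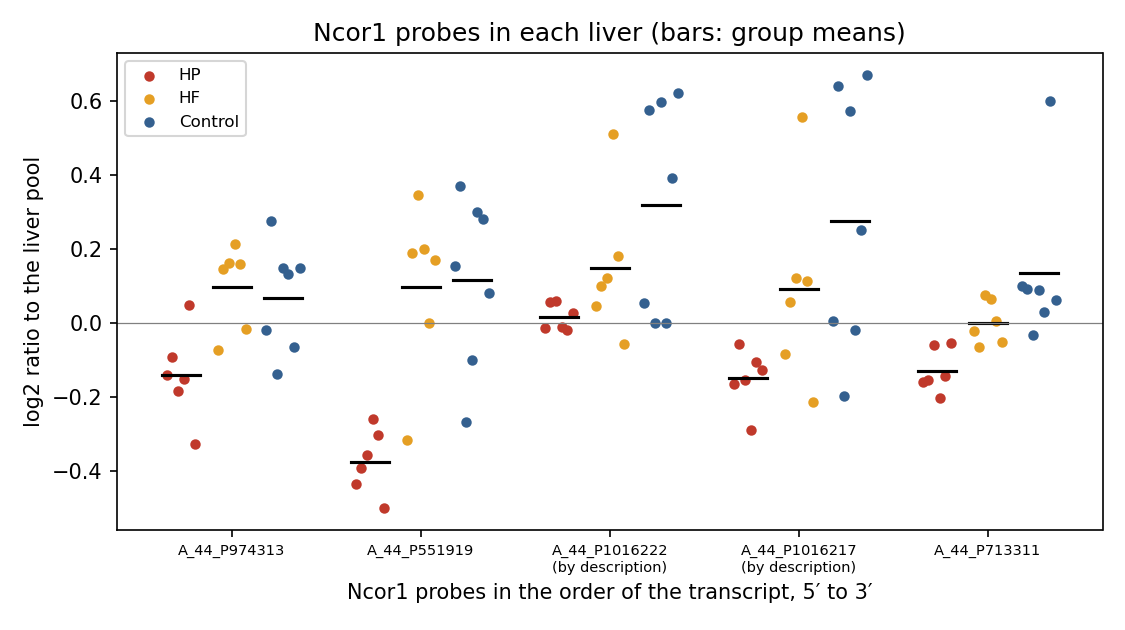
Log2 ratio to the liver pool (y axis) of the 5 Ncor1 probes in their order along the minus strand (x axis), with a point per liver and a bar at each group mean. The HP mean is the lowest on every probe, and on A_44_P1016217 and A_44_P1016222 HF 4 and Control 2, 4 and 7 stand near 0.6, with Control 6 between them and the HP livers.

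Usp40 was lower in HP livers on its single probe, at chr9:86902423-86902482 on the minus strand of rn4. The lowest, median and highest log2 ratios were -0.42, -0.27 and 0.01 in HP livers, 0.03, 0.24 and 0.50 in HF livers and -0.06, 0.23 and 0.47 in Control livers. HP 3 was the HP liver that reached into the Control range, and the other 5 were below every Control liver. HP minus Control came to -0.45 ± 0.09 log2, 1.36-fold lower in HP, with -0.56, -0.48 and -0.68 within slides 1, 4 and 5. Control 6 had the highest Control value, and without it the difference was -0.40.

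Smg1 was lower in every HP liver than in any other liver. Its brightest probe spans chr1:176377342-176377762 on the minus strand of rn4. That probe is still the dimmest of the 6 that stand for the genes, with a median Cy5 signal of 141 against a background of 32. The lowest, median and highest log2 ratios were -0.28, -0.22 and -0.12 in HP livers, -0.05, 0.09 and 0.36 in HF livers and -0.06, 0.18 and 0.36 in Control livers. The HP mean was -0.38 ± 0.07 log2 from the Control mean, 1.30-fold lower, with -0.43, -0.37 and -0.32 within slides 1, 4 and 5 and -0.38 without Control 6. With the scanner's own processed signals this difference was -0.77 ± 0.13. The main values carry an offset of 50 in each channel, which draws the log ratios of dim probes toward 0. How much of the gap between both values comes from this offset was not tested. The other Smg1 probe, at chr1:176348352-176348382, was well above background in Cy5 on 4 of 19 arrays, 0 of them HP, 2 HF and 2 Control, and was left out of every comparison.

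Slf2 was likewise lower in every HP liver than in any HF or Control liver. Its probe, at chr1:250048075-250048134 on the plus strand of rn4, carries an older name for the gene on the array. The lowest, median and highest log2 ratios were -0.22, -0.14 and -0.08 in HP livers, 0.14, 0.24 and 0.33 in HF livers and 0.03, 0.11 and 0.54 in Control livers. Control 6, at 0.54, stood far above the next Control liver at 0.25. HP minus Control was -0.32 ± 0.07 log2, 1.25-fold lower in HP, and -0.26 ± 0.05 without Control 6. Within slides it was -0.28 on slide 1, -0.22 on slide 4 and -0.66 on slide 5, where the only Control liver was Control 6.

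Zfp281 was also lower in HP livers. Its probe lies at chr13:49703716-49703775 on the plus strand of rn4. The lowest, median and highest log2 ratios were -0.30, -0.11 and -0.0030 in HP livers, -0.02, 0.07 and 0.10 in HF livers and -0.0054, 0.11 and 0.31 in Control livers. HP 5 and Control 7 nearly met, and the other 5 HP livers lay below every Control liver. The HP mean was -0.28 ± 0.06 log2 from the Control mean, 1.21-fold lower, with -0.31, -0.09 and -0.30 within slides 1, 4 and 5 and -0.29 without Control 6.

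Over all 25290 probes, limma called 113 (0.447%) between HP and Control at an adjusted p under 0.05, 78 higher (0.308%) and 35 lower (0.138%). The split of these calls moved with the processing. It was 32 higher of 61 when the background model was fitted on every spot, 81 of 90 in the deposited log2 matrix and 4 of 4 after scale normalisation. The brightest probe of each of the 6 genes was among the 113, 1 higher and 5 lower, and the other 2 kept probes, both of Ncor1, were not. The genes were picked from this comparison, so nothing is read from that count. The HP and Control ranges did not overlap for Dnase2b among the higher genes (0.506% of all probes) or for Smg1 and Slf2 among the lower ones (0.277% of all probes). Genes just inside the threshold were Slf2, with an adjusted p of 0.0438, and Ncor1 with 0.0422, and the nearest probe of these genes outside it was A_44_P713311 of Ncor1 with 0.122. These 3 values are given to describe the selection.

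The high fat diet allows a comparison with rats that did not enter the choice of the genes, although it shares the Control rats with it. Of the 8 probes 0 passed in limma between HF and Control, and 3.46% of all probes passed (1.72% higher and 1.73% lower). At an unadjusted p under 0.05 there were 0 of 8, against 15.7% of all probes. With so few probes, 0 of 8 is near the share that passed, and little can be read from either count. No gene had HF and Control ranges that stood apart, as 0.767% of all probes had with HF higher and 1.13% with HF lower. The HF mean was 0.15 ± 0.17 log2 above the Control mean for Dnase2b (limma adjusted p = 0.729), with a 95% interval of -0.21 to 0.50, and 0.062 and 0.069 without HF 4 and without Control 1. For Ncor1 it was -0.02 ± 0.10 (limma adjusted p = 0.954), with an interval of -0.24 to 0.20. Usp40 gave 0.04 ± 0.09 (limma adjusted p = 0.876) and an interval of -0.15 to 0.23. All 3 intervals include 0.

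Smg1 differed by -0.06 ± 0.07 between HF and Control livers (limma adjusted p = 0.728), with a 95% interval of -0.20 to 0.08. Slf2 differed by 0.06 ± 0.07 (limma adjusted p = 0.711), with an interval of -0.08 to 0.21, and by 0.12 without Control 6 (adjusted p = 0.217). Zfp281 differed by -0.09 ± 0.06 (limma adjusted p = 0.485), with an interval of -0.20 to 0.03. The direction of these small differences was not settled. Within slides 1, 2 and 3 Ncor1 gave -0.47, 0.13 and 0.39, Usp40 -0.27, 0.29 and 0.20, Smg1 -0.23, -0.01 and 0.11 and Dnase2b 0.54, -0.18 and 0.26. Slf2 (0.08, 0.02 and 0.23) and Zfp281 (-0.16, -0.17 and -0.14) kept 1 sign on these slides. The lesser Ncor1 probes differed by -0.13 on A_44_P713311 (adjusted p = 0.420), or -0.06 without Control 6 (adjusted p = 0.578), and 0.03 on A_44_P974313 (adjusted p = 0.884).

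Between HP and HF, 6 of 8 probes passed in limma, 1 higher and 5 lower in HP, against 7.08% of all 25290 probes (3.81% higher and 3.27% lower). This comparison shares its HP rats with the one that chose the genes and so is not independent of it. Dnase2b was 1.03 ± 0.18 log2 higher in HP than in HF livers (limma adjusted p = 0.00116). Usp40 (-0.49 ± 0.09, limma adjusted p = 0.00296), Slf2 (-0.38 ± 0.07, adjusted p = 0.00251) and Smg1 (-0.32 ± 0.07, adjusted p = 0.00935) were lower in HP. For Dnase2b, Usp40, Smg1 and Slf2 the 6 HP livers all lay on 1 side of the 6 HF livers, as they did for 2.84% of all probes with HP higher and 2.15% with HP lower.

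Ncor1 differed by -0.47 ± 0.11 between HP and HF livers (limma adjusted p = 0.0111) and Zfp281 by -0.19 ± 0.06 (limma adjusted p = 0.0490). The lesser Ncor1 probes did not pass, with -0.24 ± 0.07 on A_44_P974313 (adjusted p = 0.0584, and under 0.05 with scale normalisation, with the replicate block and without any 1 of Control 2, Control 3, Control 6, HP 5 and HF 1) and -0.13 ± 0.08 on A_44_P713311 (adjusted p = 0.387). Only slide 1 held both diets, with 2 HP and 1 HF liver. The difference there was 0.99 for Dnase2b, -0.36 for Slf2, -0.28 for Usp40, -0.20 for Smg1, -0.16 for Zfp281 and -0.03 for Ncor1, whose only HF liver on that slide was the low HF 1. With slide as a fixed block Dnase2b, Usp40 and Slf2 still passed (limma adjusted p of 0.0418, 0.0340 and 0.0316), while Ncor1 gave -0.51 (adjusted p = 0.149), Smg1 -0.32 (adjusted p = 0.0684) and Zfp281 -0.08 (adjusted p = 0.690). The Zfp281 call was also lost in 14 of 19 fits that each left out 1 rat.

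**Figure D3:**
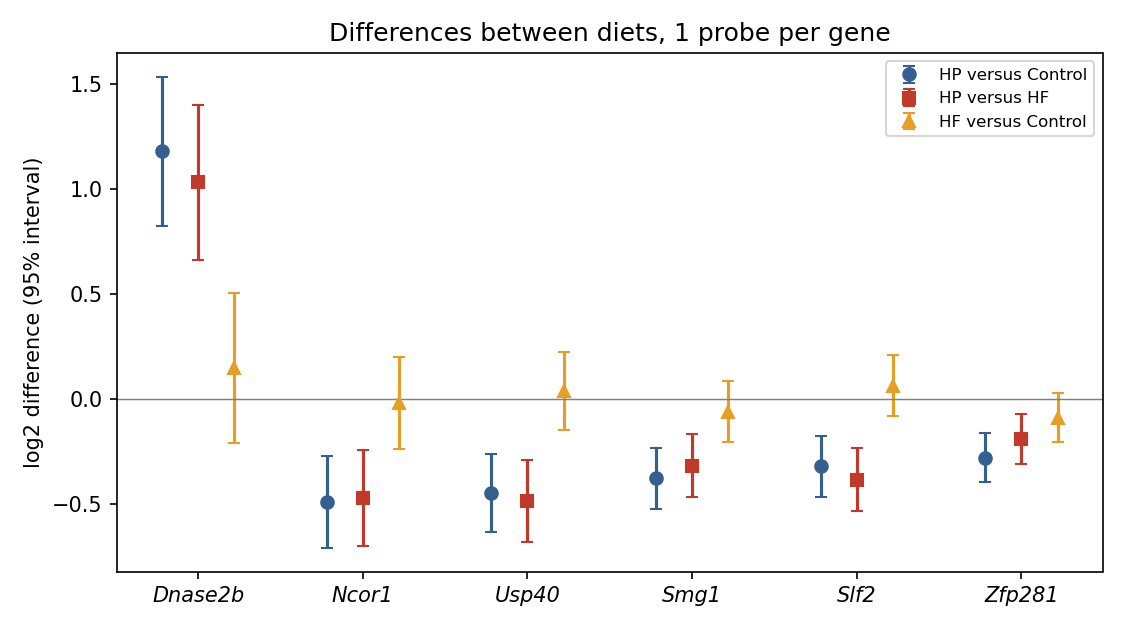
Log2 difference with its 95% interval (y axis) for the 6 genes (x axis, 1 probe each) in HP versus Control, HP versus HF and HF versus Control. Dnase2b stands at 1.18 and 1.03 in both HP comparisons and the other genes between -0.49 and -0.19, while all 6 intervals of HF versus Control include 0.

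Whether the genes moved together from liver to liver within a diet was asked after the diet means were taken out. Over 19 livers, all 10 pairs among the 5 lower genes had a Pearson r above 0, and the 5 pairs with Dnase2b lay between -0.18 and 0.25. How often r lies above 0 among pairs of other probes was not counted, so nothing is read from the signs. None of the 15 pairs passed a permutation test within diets after Benjamini-Hochberg adjustment, and 3 had an unadjusted p under 0.05. Ncor1 and Smg1 had r = 0.65 and Spearman's rho = 0.58 (adjusted permutation p = 0.0666 for r and 0.102 for rho), and r was 0.40 without the 2 livers farthest from the median of Ncor1. In every pair the 2 farthest livers were picked by the gene named first alone, so they can differ between pairs. Ncor1 and Usp40 had r = 0.63 and rho = 0.57 (adjusted permutation p = 0.0666 and 0.102), and r was 0.48 without the 2 farthest livers. For Usp40 and Smg1 r was 0.59 and rho 0.60 (adjusted permutation p = 0.0666 and 0.102).

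Of the 15 pairs 3 passed under other settings. For Usp40 and Smg1 r was 0.80 without the 2 livers farthest for Usp40 (adjusted permutation p = 0.00165), 0.71 with slide also taken out (adjusted permutation p = 0.0112) and 0.69 without Control 6 (adjusted permutation p = 0.0357). Ncor1 and Usp40 passed with slide also taken out (r = 0.63, adjusted permutation p = 0.0461). Smg1 and Zfp281, with r = 0.20 over all livers, had r = 0.58 without the 2 farthest for Smg1 (adjusted permutation p = 0.0258). HF 1 and Control 3 lay at or near the low end of their diets for Ncor1, Usp40 and Smg1 alike. Slf2 and Zfp281 had r = 0.03 over the 19 livers and 0.21 without Control 6.

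**Figure D4:**
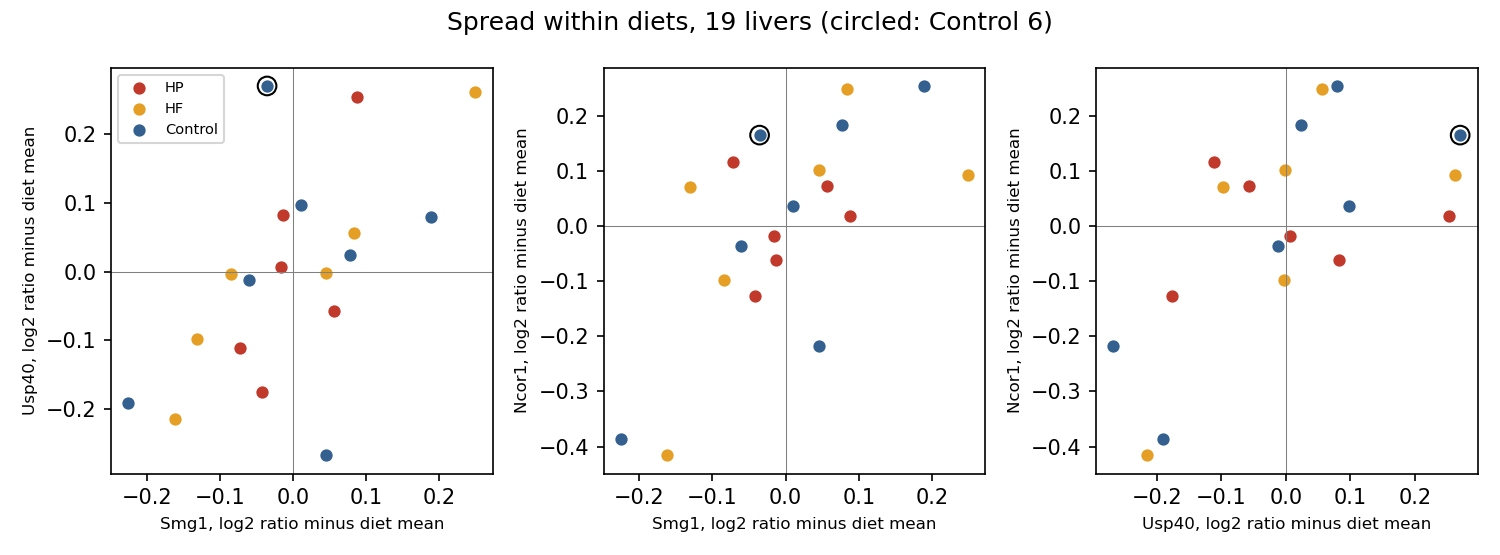
Log2 ratio minus the diet mean for pairs of Smg1, Usp40 and Ncor1 (both axes), with a point per liver and Control 6 circled. The 3 clouds slope upward, with r between 0.59 and 0.65 over 19 livers, and an HF and a Control liver stand at the lower left of each.

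Among 10749 other named genes, those whose log2 ratios followed a member most closely over the 19 livers, with diet means taken out, are given as a description. These genes were picked for the highest of 10749 values of r, so a high r can arise by chance. Whether any r exceeded chance was not tested, and no shared regulation is read from them. For Dnase2b the closest genes were Akap7 (r = 0.77), Amacr (0.76) and Crtc3 (0.72). Ncor1 was followed by Ppp1r12a, Gnas and Dpy19l1 (0.78 each), Usp40 by Padi3 (0.74), Ralgapa2 (0.73) and Ostm1 (0.72), and Smg1 by Chd2 (0.79), Ccdc191 (0.75) and Pbrm1 (0.75). Zfp281 was followed by Hook3 (0.77), Wwp1 (0.70) and F8 (0.70). The highest values belonged to Slf2, with Eps15 (0.91), C15h8orf58 (0.89) and Fli1 (0.89), and they rested in part on Control 6, falling to 0.79, 0.73 and 0.71 without it. Of these 18 genes the difference between HP and Control was largest for Ppp1r12a, at -0.39 log2.

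The partners, family members and compartments of the 6 genes were examined as 10 lists with 138 other measured genes. Between HP and Control 1 of 138 passed in limma, against 0.447% of all probes. It was Hexa, a lysosomal hexosaminidase subunit, 0.36 ± 0.06 log2 higher in HP (limma adjusted p = 0.0127). At an unadjusted p under 0.05 there were 21, near the 14.4% of all 25290 probes with such a p in this comparison (15.7% in HF versus Control and 20.2% in HP versus HF). Their median difference was -0.03, against 0.0011 over 10865 named genes. Between HF and Control 6 of 138 passed, 4 higher and 2 lower, against 3.46% of all probes. Between HP and HF 11 of 138 passed, 4 higher and 7 lower, against 7.08%. Both counts are near those shares, and little can be read from them. Of these 18 calls 6 were kept in every alternative fit, and 10 were lost with slide as a fixed block. The 6 were Dnase1 and Ctsl in HF over Control, Nr2f2 in HF over Control, and Dnase1, Sin3a and Usp7 in HP over HF. The 10 were Ctsa, Ctsh, Ctsl, Mbd3, Nr2f2, Rad21 and Usp39 in HP over HF and Neu1, Sin3a and Usp2 in HF over Control.

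For Dnase2b the lists held the other DNases and the lysosomal proteins. The 6 other measured DNases ranged from -0.03 to 0.26 log2 in HP over Control, and its relative Dnase2, the general lysosomal DNase, was at 0.17 ± 0.08 (limma adjusted p = 0.345). Dnase1, a secreted neutral DNase, averaged 0.09 in HP livers, -0.29 in HF livers and 0.08 in Control livers. It was lower in HF than in Control (-0.37 ± 0.07, limma adjusted p = 0.00280) and higher in HP than in HF (0.38 ± 0.07, adjusted p = 0.00216). With the scanner's processed signals both differences were larger, at -1.77 and 1.77, and in the deposited matrix they were -0.64 and 0.74. Of 27 lysosomal proteins 1 rose and 0 fell in HP over Control, with a median of 0.01, and the range ran from -0.31 for Acp5 to 0.43 for Ctsh. Against HF livers, Ctsh was higher in HP livers and Ctsa, Ctsl and Smpd1 were lower, 4 of 27 in all, where 7.08% of all probes passed. The calls of Ctsa and Ctsh were lost in 19 and 15 of 30 alternative fits. In HF over Control 2 of 27 passed, where 3.46% of all probes did. Ctsl, a cathepsin, was higher (0.62 ± 0.11, limma adjusted p = 0.00251) and Neu1, a sialidase, lower (-0.28 ± 0.07, limma adjusted p = 0.0210).

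The corepressor list drawn up around Ncor1 was the one list in which every gene described leaned the same way in HP over Control. This list was 1 of 10, and its lean was not tested. Of 10865 named genes 5395 were below 0 in this comparison. The 7 other genes described, of the NCoR, Sin3 and CoREST corepressors, were all below 0, between -0.22 for Sin3a and -0.04 for Hdac3, with a median of -0.08. With Cy5 alone and in the deposited matrix 5 of 7 were below 0, and 6 of 7 were with slide as a fixed block, without Control 2 or without Control 6. None of the 7 passed in limma, and 2 had an unadjusted p under 0.05. These were Sin3a, a scaffold of deacetylase complexes (-0.22 ± 0.09, adjusted p = 0.243), and Rcor1, of the separate CoREST complex (-0.19 ± 0.09, adjusted p = 0.347). Sin3a averaged -0.22 in HP livers, 0.39 in HF livers and 0.0017 in Control livers. It was higher in HF than in Control (0.39 ± 0.09, limma adjusted p = 0.0144) and lower in HP than in HF (-0.61 ± 0.09, adjusted p = 0.000287). Of 17 nuclear receptors that bind NCoR 0 passed in HP over Control, 1 at an unadjusted p under 0.05, with a median of 0.0070. Nr2f2, an orphan receptor also called COUP-TFII, averaged -0.13 in HP livers, 0.20 in HF livers and -0.29 in Control livers, and passed in limma in HF over Control and, as lower, in HP over HF.

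Of 34 other ubiquitin-specific proteases 0 passed between HP and Control in limma, 7 had an unadjusted p under 0.05 (14.4% of all probes did), and the range ran from -0.29 for Cyld to 0.54 for Usp18. Between HP and HF Usp7, which deubiquitinates Mdm2 and p53, was lower in HP (-0.50 ± 0.12, limma adjusted p = 0.0132) and Usp39, a spliceosome factor, was higher (0.25 ± 0.07, limma adjusted p = 0.0278). Usp2, whose liver expression follows the circadian clock in mice, was 1.44 ± 0.36 log2 higher in HF than in Control (limma adjusted p = 0.0285). The Usp39 and Usp2 calls were each lost in 10 of 30 alternative fits.

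Around Smg1, Slf2 and Zfp281 few genes passed in any comparison. Of 11 other nonsense-mediated decay genes 0 passed in limma in the 3 comparisons, with 2 at an unadjusted p under 0.05 in HP over Control, 2 in HP over HF and 1 in HF over Control. The decay list ranged from -0.16 for Casc3 to 0.13 for Ruvbl2 in HP over Control. The 7 other genes of the PIKK list, 4 members of the family and 3 of their co-chaperones, ranged from -0.09 for Tti2 to 0.16 for Telo2, and 0 passed in limma in any comparison, with 1 at an unadjusted p under 0.05 in HP over Control. The 8 other genes of the SMC5/6 group had a median of -0.06 and a low of -0.26 for Smc5, with 0 passing in limma in any comparison and 1 at an unadjusted p under 0.05 in HP over Control. Of 9 cohesin and condensin genes Rad21 passed, lower in HP than in HF (-0.24 ± 0.07, limma adjusted p = 0.0424), a call lost in 14 of 30 alternative fits. Of 12 other genes of the Zfp281 and NuRD list 10 were below 0 in HP over Control, with a median of -0.07 (8 of 11 in the deposited matrix). Among all named genes 5395 of 10865 were below 0 there, and the lean of this list was not tested. Of these 12 genes 0 passed in limma, and 2 had an unadjusted p under 0.05. Mbd3, a NuRD subunit, was higher in HP than in HF (0.26 ± 0.07, limma adjusted p = 0.0331), a call lost in 11 of 30 alternative fits.

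**Figure D5:**
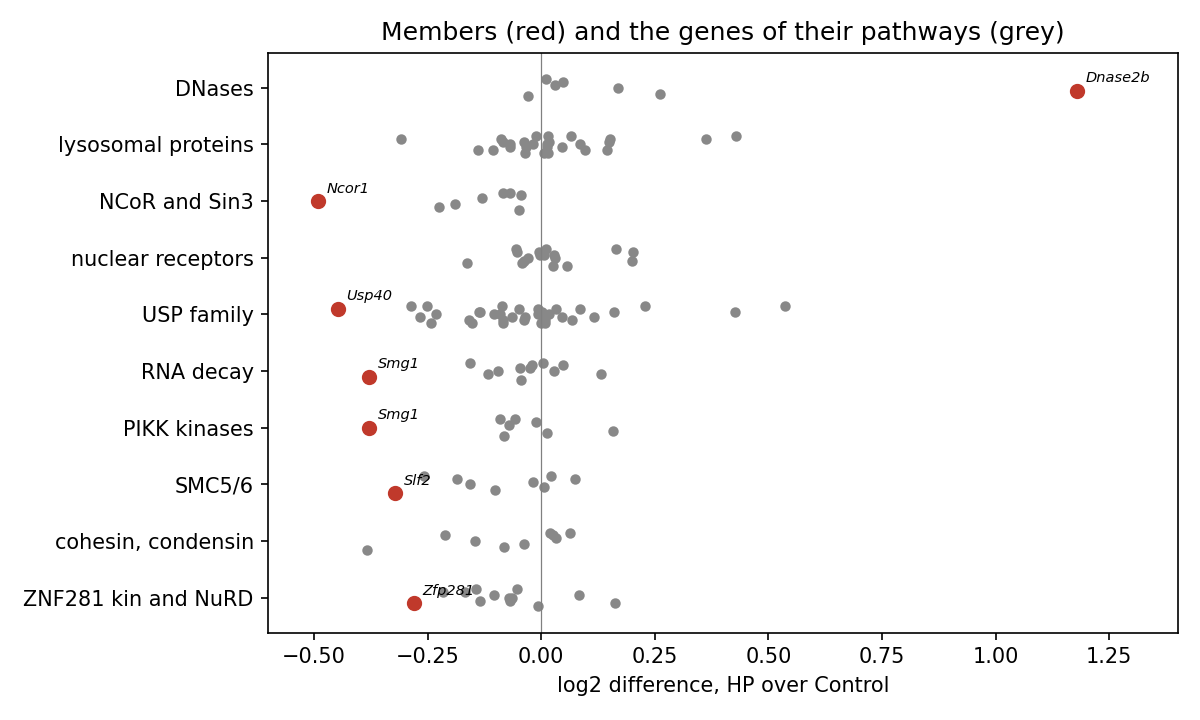
Log2 difference of HP over Control (x axis) for the 6 genes (red) and the other measured genes of the 10 lists (grey), a row per list. The 6 other DNases lie between -0.03 and 0.26, all 7 grey points of the NCoR and Sin3 row lie below 0 (5 of 7 with Cy5 alone or in the deposited matrix), and the grey points of each other row fall on both sides of 0. Of 10865 named genes 5395 were below 0.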

How the data were processed

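Per the file headers and the submitters' processing notes, the deposited scanner files give spot and background intensity from Agilent Feature Extraction 10.5.1.1, with probe positions on the rn4 build. The authors also deposited a matrix of log2 values for 22764 features, each column with a median of 8.20, whose processing is not given in the sources used here. It served as an alternative. Within arrays it followed Cy5, and after centring it followed the log ratio (r between 0.911 and 0.976). A joined line in 1 file was split into its 2 spots.

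Mean signals were corrected for background with normexp (offset 50), and loess was run within each array on the log2 ratio (Cy5 over Cy3), in R 4.3.3 with limma 3.58.1. The 40 spots on 5 arrays with a local background over 50 units brighter than the spot were dropped, a change made after results were known. Kept probes had Cy5 well above background on 6 or more of 19 arrays, and 260 of them lacked at least 1 value. Current symbols were matched by accession for 10835 probes, by symbol for 5196 and by synonym for 3478, while 149 kept the name in the files and 21354 had none. The probe coordinates are those of the files, and exon or UTR positions were not used here.

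A linear model over the 3 diets (limma, two-sided, Benjamini-Hochberg over 25290 probes) gave differences and SE. Correlations within diets used 100000 permutations. The code was tested on simulated data. The genes named are the 6 members, the list genes that passed a contrast (at most 4 per list and contrast), list extremes, and the 3 genes closest to each member by r. List genes named with an unadjusted p or as a list's extreme were chosen after their values were seen. The members and lists were chosen with earlier results of these data known. One listed gene is not reported here. Replicates are separate rats, and their number limits the precision. The replicate numbers pair no rats: 18 like-numbered pairs of rats in different diets had a mean correlation of -0.0092 after diet means were removed, and 102 unlike-numbered pairs 0.0011. Alternatives changed the background fit, signals, normalisation, dim-probe filter, probe choice, slide term, replicate block and rats included.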

Additional observations from a re-analysis of the deposited data

Results flagged for a closer look

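Control 6 lay far from the other Control rats on 2 probes. For Slf2 its log2 ratio to the pool was 0.54, with the next Control rat at 0.25. On the Ncor1 probe A_44_P713311 it was 0.60, with the next at 0.10. Of 33 sets of a probe and a diet examined for a stray rat, these 2 were picked out, and chance picks about 1 set in 20. Control 6 also had the high lymphocyte markers, and what part they had in these values was not tested.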

How the results depend on the processing

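The number of arrays and the uneven slides limit these results. Each of the 6 genes kept its sign in HP versus Control and in HP versus HF under 11 alternatives and 19 fits that left out 1 rat. The genes were chosen by HP versus Control, and HP versus HF shares the HP rats, so the kept signs are no independent support. With processed signals HP versus Control moved to -0.77 for Smg1 and -0.36 for A_44_P974313 of Ncor1. In HP versus HF, slide as a fixed block ended the calls of Ncor1 (-0.51), Smg1 (-0.32) and Zfp281 (-0.082). The Zfp281 call also ended with processed signals (-0.18), the deposited matrix (-0.19, adjusted p = 0.175), no filter (-0.19), slide as a random block (-0.18) and the replicate block (-0.19, adjusted p = 0.0695), and without 14 of 19 rats in turn (-0.22 to -0.16 over all 19). The replicate block ended no other call of the 6 genes. The small differences of HF versus Control changed sign for Dnase2b (-0.017 with scale normalisation, 0.062 to 0.22 without 1 rat), Smg1 (0.00082 with scale normalisation), Usp40 (-0.014 to 0.084 over fits without 1 rat) and Ncor1 (0.013 in the matrix, 0.033 with Cy5 alone, 0.046 with scale normalisation, 0.035 with slide fixed, -0.083 to 0.064 without 1 rat). On A_44_P974313 of Ncor1 it was -0.021 with Cy5 alone and -0.0051 to 0.064 without 1 rat, below 0 without Control 3. Within diets, r turned to 0.035 for Dnase2b and Smg1 with processed signals and to 0.0074 without the 2 livers farthest for Dnase2b. For Smg1 and Slf2 r turned to -0.0053 without the 2 livers farthest for Smg1.

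Of all probes, HP versus Control called 113, against 61 with normexp fitted on every spot, 54 with processed signals, 53 with Cy5 alone, 4 with scale normalisation, 24 with slide fixed, 238 with the replicate block and 26 to 460 without 1 rat, the highest without Control 7. With slide fixed HF versus Control called 477 in place of 874, and HP versus HF 365 in place of 1791. Without 1 rat these counts were 649 to 1000 and 1332 to 2518. Except where a setting's own construction shows it, the cause was not tested.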
